A study of Rattus norvegicus with 108 samples.

Results

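The immediate early genes described here were 10 genes taken by symbol from the count tables of the dorsal and the ventral dentate gyrus (dorDG and venDG) of the rat: Fos, Fosb, Junb, Jun, Egr1, Ier2, Atf3, Btg2, Dusp1 and Nr4a1. They were 10 of the 19127 genes in the tables and took 48683 of the unique molecular identifiers (UMIs, each standing for 1 captured RNA molecule). The rule used names only and no measured value. Male Long-Evans rats from Charles River, 2 months old at the start, received fluoxetine (FT), a selective serotonin reuptake inhibitor, at 18 mg per kg body weight, or water (Sham), for 6 weeks, and tissue of each region was micropunched and profiled in droplets with a 3′-end RNA kit. The groups were dorDG FT with 4 replicates (number 3 is not among the labels used here) and dorDG Sham, venDG FT and venDG Sham with 5 replicates each. Replicates were pools of several rats, as the methods state, so that differences between single animals cannot be seen. The labels name no transgene or further agent in any group. In 8 replicates the labels name 2 droplet reactions, here termed first and second as their names sort, and in the other 11 a single reaction. The labels speak of nuclei, whereas the methods also describe a whole-cell suspension, and neither says which reaction held which.

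Immediate early genes are transcribed within minutes of a stimulus, because the factors that switch them on, such as the cAMP response element binding protein and the serum response factor, are already present in the cell. Fos, Fosb, Jun and Junb encode subunits of the dimeric transcription factor AP-1, Egr1 encodes a zinc finger transcription factor, Atf3 a stress-induced leucine zipper factor and Nr4a1 an orphan nuclear receptor. Btg2 and Dusp1 encode feedback regulators, an antiproliferative protein tied to RNA decay and a phosphatase of MAP kinases, and Ier2 encodes a small nuclear protein. In the hippocampus these genes are widely used as reporters of recent neuronal activity, and they also respond to the dissociation of tissue into cells.

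Of the 10 genes, 7 had an entry in a RefSeq promoter table of the rat assembly GRCr8 (all but Fos, Jun and Atf3). The cAMP response element TGACGTCA, read on both strands from 250 bases before to 50 bases after the gene start, was found in the promoters of Btg2, Dusp1 and Ier2 (3 of 7, against 1.83% of all 33469 promoters). Its shorter form TGACG, which also matches inside the full element, was found in 6 of 7 (all but Fosb, against 21.2%). Shown here are the 250 bases before the gene start, 5′ to 3′ on the gene's strand, of the 3 promoters with the full element and of Nr4a1, which held the shorter form 4 times, with TGACG or its reverse complement in capitals.
Btg2: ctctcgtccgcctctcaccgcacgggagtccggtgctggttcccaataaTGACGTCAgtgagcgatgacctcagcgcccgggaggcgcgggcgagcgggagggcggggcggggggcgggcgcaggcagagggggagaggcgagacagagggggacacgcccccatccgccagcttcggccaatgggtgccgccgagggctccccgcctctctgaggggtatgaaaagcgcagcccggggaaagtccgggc
Dusp1: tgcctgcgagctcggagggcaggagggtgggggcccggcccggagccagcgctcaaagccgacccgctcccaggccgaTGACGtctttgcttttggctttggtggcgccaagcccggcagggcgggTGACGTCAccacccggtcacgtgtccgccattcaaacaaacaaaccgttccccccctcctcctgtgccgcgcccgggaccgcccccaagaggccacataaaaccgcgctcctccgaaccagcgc
Ier2: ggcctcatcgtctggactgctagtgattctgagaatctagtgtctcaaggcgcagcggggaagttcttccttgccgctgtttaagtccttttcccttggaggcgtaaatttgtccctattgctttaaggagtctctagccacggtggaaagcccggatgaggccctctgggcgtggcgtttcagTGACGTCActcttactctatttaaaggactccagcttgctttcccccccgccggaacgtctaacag
Nr4a1: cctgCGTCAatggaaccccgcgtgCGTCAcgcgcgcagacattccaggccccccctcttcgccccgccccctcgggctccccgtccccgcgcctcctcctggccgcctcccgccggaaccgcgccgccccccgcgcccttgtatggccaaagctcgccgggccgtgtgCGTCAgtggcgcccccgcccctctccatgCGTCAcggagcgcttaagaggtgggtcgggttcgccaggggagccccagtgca
These windows lie at chr13:48087691-48087940 on the minus strand for Btg2, and on the plus strand at chr10:17184603-17184852 for Dusp1, chr19:40399123-40399372 for Ier2 and chr7:134259888-134260137 for Nr4a1. The full element began 201 bases before the start of Btg2, 124 before that of Dusp1 and 66 before that of Ier2. The CArG box, the binding sequence of the serum response factor, was found in Egr1 alone (1 of 7, against 1.64% of promoters), at positions -105 to -96 and -83 to -74 from the gene start. The EGR motif GCGNGGGCG was found in Btg2 and Nr4a1 (4.98% of promoters), TATAAA in Fosb and Junb (14.2%), and the AP-1 motif (TGACTCA or TGAGTCA) in 0 of 7 (4.63%). These are matches of letters in a fixed window, and the count tables hold no measurement at the promoters.

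The counts came from 3347 cells, 1289 of dorDG and 2058 of venDG, with 42 to 384 cells and 220162 to 1523537 UMIs per replicate. Levels are given as UMIs of a gene per 10000 UMIs of the replicate or reaction, and tests compared replicates or reactions, never cells. Because UMIs were summed over all cells of a replicate, the sums do not separate a larger share of cells that hold a transcript, more of it per cell, and another make-up of cells. In dorDG, 6 oligodendrocyte markers summed to 43.7 to 105 UMIs per 10000 in every type not named for oligodendrocytes, so cells also held RNA of other types, and the part of such RNA in low counts was not tested. Differences were tested by the edgeR quasi-likelihood F-test over every gene whose mean level reached 0.5 UMIs per 10000, and calls required a log2 fold change of 0.32 or more in size and a p, adjusted after Benjamini and Hochberg, no higher than 0.2. Junb (73 UMIs in all) and Ier2 (50 UMIs) lay under the 0.5 minimum, so that 8 of the 10 genes were tested. The members' own totals ran from 1674 UMIs for Jun to 16443 for Fos among the tested genes. Cells differed in their share of ribosomal protein UMIs, and those at 2% or more are called ribosome-rich and those under 2% ribosome-poor. Of all cells used, 1226 were ribosome-poor.

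The reaction a cell came from went with the largest differences in these genes. In the second reactions nearly no transcript of any of the 10 genes was counted, while the first reactions of the same replicates held them at a summed level close to that of the single reactions. Summed over the 10 genes, the level was 25.3 to 60.5 UMIs per 10000 in the first reactions, 0.251 to 2.57 in the second and 19.7 to 53.9 in the single reactions. Of the 8 tested genes, 8 were lower in the second reaction, where 39.9% of all 4378 genes tested were called lower. The fit compared both reactions of each replicate with the replicate as a block.

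Fos stood at 5.68, 14.4 and 19.1 UMIs per 10000 (lowest, median and highest) in the 8 first reactions, and between 0 and 0.198 in the 8 second reactions, of which 3 held no Fos UMI. In all, 6949 Fos UMIs were counted in first and 11 in second reactions, a ratio of levels of 272 (95% interval 152 to 545, counting error only). The levels of first and second reactions did not overlap for Fos or for any other of the 8 tested genes. Overlap was not counted for all 4378 genes, of which 84.2% were called in either direction. For Fos, the log2 difference of the second from the first reaction was -8.58 ± 0.41 (SE, n = 8 pairs, edgeR adjusted p = 1.21e-09). The partner gene Fosb stood at 2.44, 3.87 and 5.71 in the first reactions and at 0 to 0.0523 in the second, with 5 second reactions at 0 and a log2 difference of -8.03 ± 0.38 (adjusted p = 1.03e-09). Jun, the AP-1 subunit that can pair with either, stood at 1.18, 2.13 and 2.87 against 0 to 0.0887 (log2 difference -6.24 ± 0.38, adjusted p = 5.23e-09). The AP-1 genes thus had nearly all their UMIs in first reactions, with Fosb at 2037 against 4 and Jun at 1082 against 8.

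**Figure D1:**
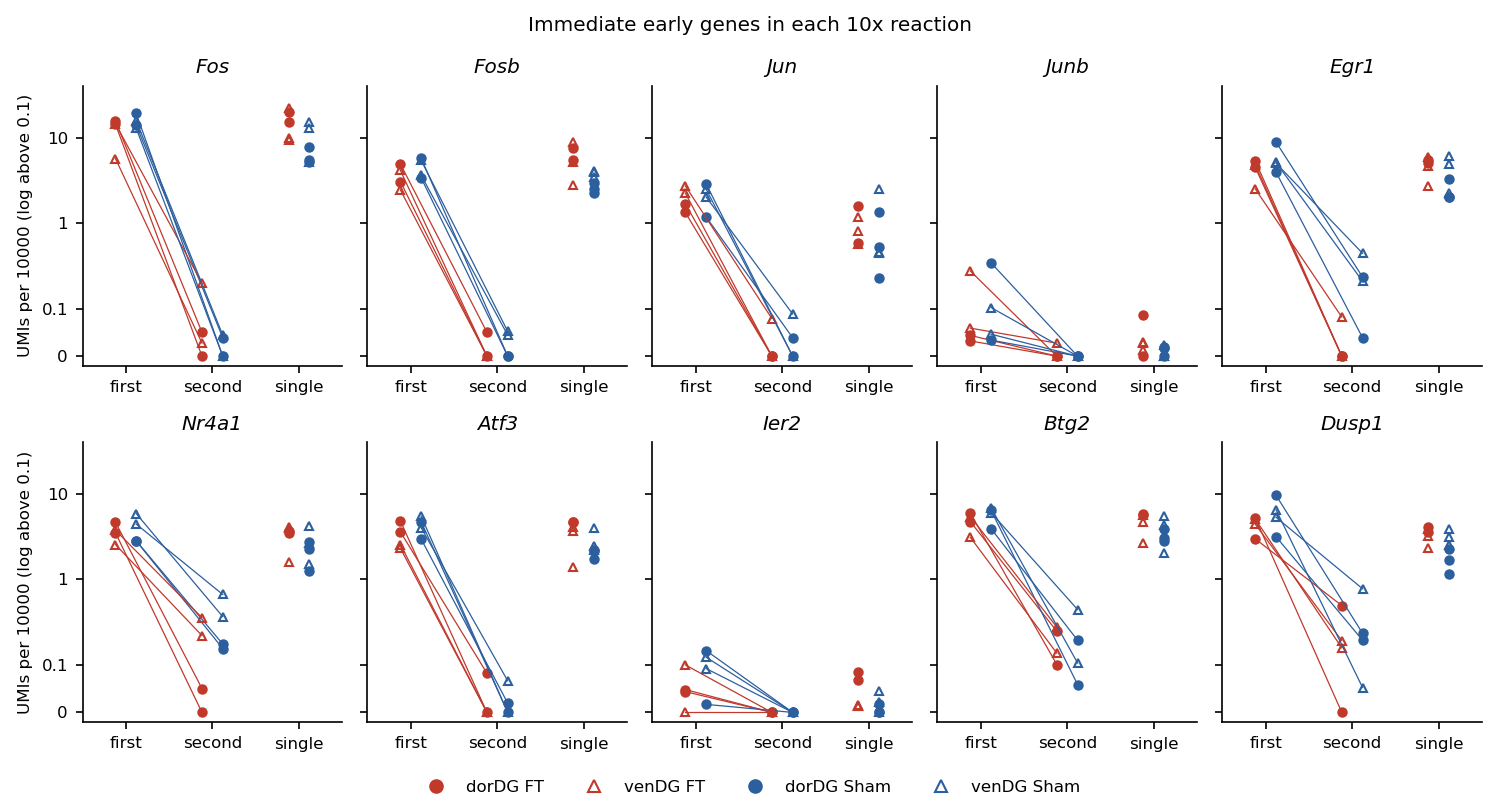
Level of each of the 10 genes in each of the 27 reactions, in UMIs per 10000 on an axis that is linear near 0 and logarithmic above, with first and second reactions of a replicate joined by a line. Circles are dorDG and triangles venDG, FT is red and Sham blue, and every joined line of the 8 tested genes runs down from the first to the second reaction.

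Atf3 had the third largest difference, with levels of 2.31, 3.8 and 5.46 in first and 0 to 0.0824 in second reactions (1885 against 5 UMIs, log2 difference -7.68 ± 0.38, adjusted p = 1.25e-09). Egr1 stood at 2.51, 4.91 and 8.85 against 0 to 0.443 (2452 against 33 UMIs, log2 difference -5.80 ± 0.44, adjusted p = 2.74e-08). Among the transcription factors, then, Egr1 and Nr4a1 had more UMIs in the second reactions than Fos, Fosb and Atf3. Nr4a1 stood at 2.55, 3.63 and 5.87 against 0 to 0.665 (1951 against 66 UMIs) and had the smallest of the 8 differences, at -4.36 ± 0.32 (adjusted p = 2.18e-08).

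The feedback genes were still counted at low levels in the second reactions. Btg2 was the only tested gene with UMIs in all 8 second reactions, at 0.0585 to 0.443 against 3.10, 5.68 and 6.86 in the first (50 against 2667 UMIs, log2 difference -5.15 ± 0.29, adjusted p = 3.3e-09). Dusp1 stood at 0 to 0.776 against 2.97, 5.14 and 9.61 (67 against 2635 UMIs, log2 difference -4.84 ± 0.42, adjusted p = 8.78e-08). As ratios of the summed levels, the first reactions stood 23.0 times (95% interval 17.4 to 31.0) above the second for Btg2, 16.9 times (13.3 to 21.9) for Dusp1 and 12.7 times (9.96 to 16.5) for Nr4a1, and these intervals lie below those of Fos (152 to 545) and Fosb (85.6 to 806). The 2 untested genes went the same way, with 57 against 1 UMI for Junb (ratio 24.6, 95% interval 4.23 to 987) and 33 against 0 for Ier2. Ier2 was 4.74-fold higher in the first reactions when the second are set to a floor of 3 UMIs over the group. The exact lower 95% limit of the Ier2 ratio was 3.64.

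The median log2 difference of the 8 genes was -6.02, against 0.13 for all genes tested. With library totals in place of TMM factors the medians were -5.54 and 0.60, and the share of called genes that were higher in the second reaction moved from 52.5% to 62.7%, so that the members stood about as far below the rest under either scaling. Each of the 8 genes was also called lower in dorDG alone (median -6.83, with 38.7% of genes called lower), in venDG alone (-5.57, 37.7%), and among cells of 1500 to 3000 UMIs (-5.33, 30.1%). The difference between reactions was not shown to differ between FT and Sham, with 0 of the 8 genes called (0% of 4378 genes, and 0 of the 8 genes at an unadjusted p under 0.05 by edgeR). Other measures moved with the reaction order. The ribosome-poor share of cells was 4.08 to 15.5% in first and 78.3 to 95.9% in second reactions, the median of UMIs per cell 3262 to 6241 against 1516 to 5323, and the mitochondrial share 6.70 to 9.46% against 2.14 to 5.31%. Of other cell types, 4 blood markers summed to 66.4 to 349 UMIs per 10000 in first and 0.0388 to 37.3 in second reactions (at least 2 of 4 above 0 in each), and 6 microglial markers to 10.3 to 28.8 against 0.752 to 22.3 (at least 3 of 6 above 0). The sums of 6 oligodendrocyte markers overlapped (64.3 to 285 against 26.1 to 307).

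The members were low in the second reactions within either class of cells. Among ribosome-rich cells, Fos stood at 13.9 UMIs per 10000 in the 935 cells of first reactions and at 0.0335 (1 UMI) in the 72 of second reactions. Among ribosome-poor cells it stood at 4.62 in the 107 cells of first and at 0.0508 in the 712 of second reactions. The single reactions held both kinds at 16.2 (ribosome-rich) and 2.5 (ribosome-poor). In fits within a class, chosen after the data were seen, all 8 tested genes were called lower in ribosome-rich cells of the second reaction (median -4.03, with 35.5% of genes called lower) and 6 of 6 testable genes in ribosome-poor cells (median -4.96, 15.6%). Dusp1 showed the smallest difference among ribosome-rich cells, with 42 UMIs (1.41 per 10000) in second reactions against 5.33 per 10000 in first (log2 difference -2.64 ± 0.40, edgeR adjusted p = 3.8e-06).

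The difference was also present within cell types of dorDG, for which the authors deposited a type per cell. In 4 types at least 3 replicates had 3 or more cells in both reactions, and 14 of 15 pairs of type and gene that could be tested were called lower in the second reaction. In Endothelial cells all 8 tested genes were called (16.2% of genes were called lower there), in Oligodend1 cells 3 of 3 (28.9%), in Granule cells 2 of 2 (9.33%) and in AstroSub1 cells 1 of 2 (15.6%). The genes other than Fos and Btg2 passed the minimum in few types.

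In Endothelial cells 334 Fos UMIs were counted in 54 cells of first reactions and 0 in 38 cells of second reactions, so that Fos was at least 60.9-fold higher in the first (floor of 3 UMIs over the type). Fosb, with 141 UMIs against 0, was at least 25.7-fold higher there, and Atf3, with 185 against 0, at least 33.7-fold. These same 3 genes had the highest bounds or ratios over whole reactions. Dusp1 had 7 UMIs against 168 (ratio 13.1, 95% interval 6.23 to 33.1), and Btg2 had 9 against 291 (17.7, 9.19 to 39.1). In Oligodend1 cells Fos was counted 157 times in 42 cells against 0 in 55 cells (at least 18.1-fold higher), and in Granule cells 49 times in 13 cells against 0 in 63 (at least 23.7-fold). The pair that missed the threshold was Btg2 in AstroSub1 cells, with 16 UMIs against 2 (ratio 7.18, 95% interval 1.69 to 64.3, log2 difference -2.07 ± 1.28, adjusted p = 0.299).

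In dorDG, 5 of the 8 tested genes were higher in FT than in Sham when all cells of a replicate were summed: Fos, Fosb, Atf3, Btg2 and Nr4a1. There, 12.4% of all 4274 genes tested were called higher. The median log2 fold change of the 8 genes was 0.78, against -0.04 for all genes. This comparison asks whether 6 weeks of fluoxetine went with a different level of these activity-regulated genes. None of the 5 calls passed an adjusted p of 0.05 (0 of 8 genes), none was made with the replicate number as a block (0 of 8, adjusted p 0.221 to 0.228 for these 5 genes), and the calls depended on the reactions, cells and replicates used. The block fit also left out Sham replicate 3, which has no FT replicate of its number. Leaving out that replicate alone also gave 0 calls, so its part and that of the block cannot be told apart.

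Fos stood at 12, 12.1, 15.1 and 20.1 UMIs per 10000 in FT replicates 1, 2, 4 and 5, and at 7.52, 13.4, 7.81, 5.44 and 5.13 in Sham replicates 1 to 5. All FT values lay above 4 of the 5 Sham values, and Sham replicate 2 lay between the FT values. The means were 14.8 ± 3.81 and 7.86 ± 3.33 (SD, n = 4 and 5), with a log2 fold change of 0.96 ± 0.35 (SE, edgeR adjusted p = 0.168). Fosb stood at 2.57, 3.82, 7.58 and 5.46 in FT and at 1.81, 4.03, 2.51, 2.93 and 2.26 in Sham (log2 fold change 0.91 ± 0.35, adjusted p = 0.171). The lowest FT value of Fosb lay below 2 of the Sham values. Fosb encodes, through an alternative splice form, the long-lived AP-1 protein that builds up with repeated stimulation, and these counts per gene do not separate its splice forms.

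Nr4a1 was the 1 tested member whose groups did not overlap, with 2.94, 3.63, 3.70 and 3.48 in FT and 1.57, 2.04, 1.24, 2.70 and 2.28 in Sham. Its means were 3.44 ± 0.342 and 1.97 ± 0.572, and its log2 fold change was 0.88 ± 0.26 (adjusted p = 0.155). Overlap was not counted for all 4274 genes, of which 28.6% were called in either direction. Atf3 stood at 3.02, 3.73, 4.62 and 4.71 in FT and at 1.59, 3.32, 2.18, 1.71 and 2.17 in Sham (log2 fold change 0.94 ± 0.29, adjusted p = 0.155). For Atf3, too, Sham replicate 2 was the one Sham value among the FT values. Btg2, the antiproliferative feedback gene, stood at 4.0, 4.63, 5.85 and 5.6 in FT and at 2.18, 4.53, 2.81, 3.02 and 3.83 in Sham (log2 fold change 0.68 ± 0.28, adjusted p = 0.177).

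Egr1, Dusp1 and Jun did not pass the test. Egr1 stood at 3.75, 4.13, 5.45 and 5.02 in FT and at 2.13, 6.31, 2.02, 2.00 and 3.29 in Sham (log2 fold change 0.58 ± 0.38, adjusted p = 0.304). Dusp1 stood at 2.57, 4.04, 4.13 and 3.61 in FT and at 1.77, 6.84, 1.16, 1.69 and 2.24 in Sham (0.39 ± 0.48, adjusted p = 0.558). For both genes the highest value of all was that of Sham replicate 2, and the other 4 Sham values lay below every FT value. Jun stood at 1.11, 1.30, 0.588 and 1.59 in FT and at 0.651, 2.02, 0.530, 0.230 and 1.35 in Sham (0.30 ± 0.50, adjusted p = 0.668). Junb reached 0.0857 in FT and 0.242 in Sham, and Ier2 0.0857 and 0.104, and neither was tested.

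**Figure D2:**
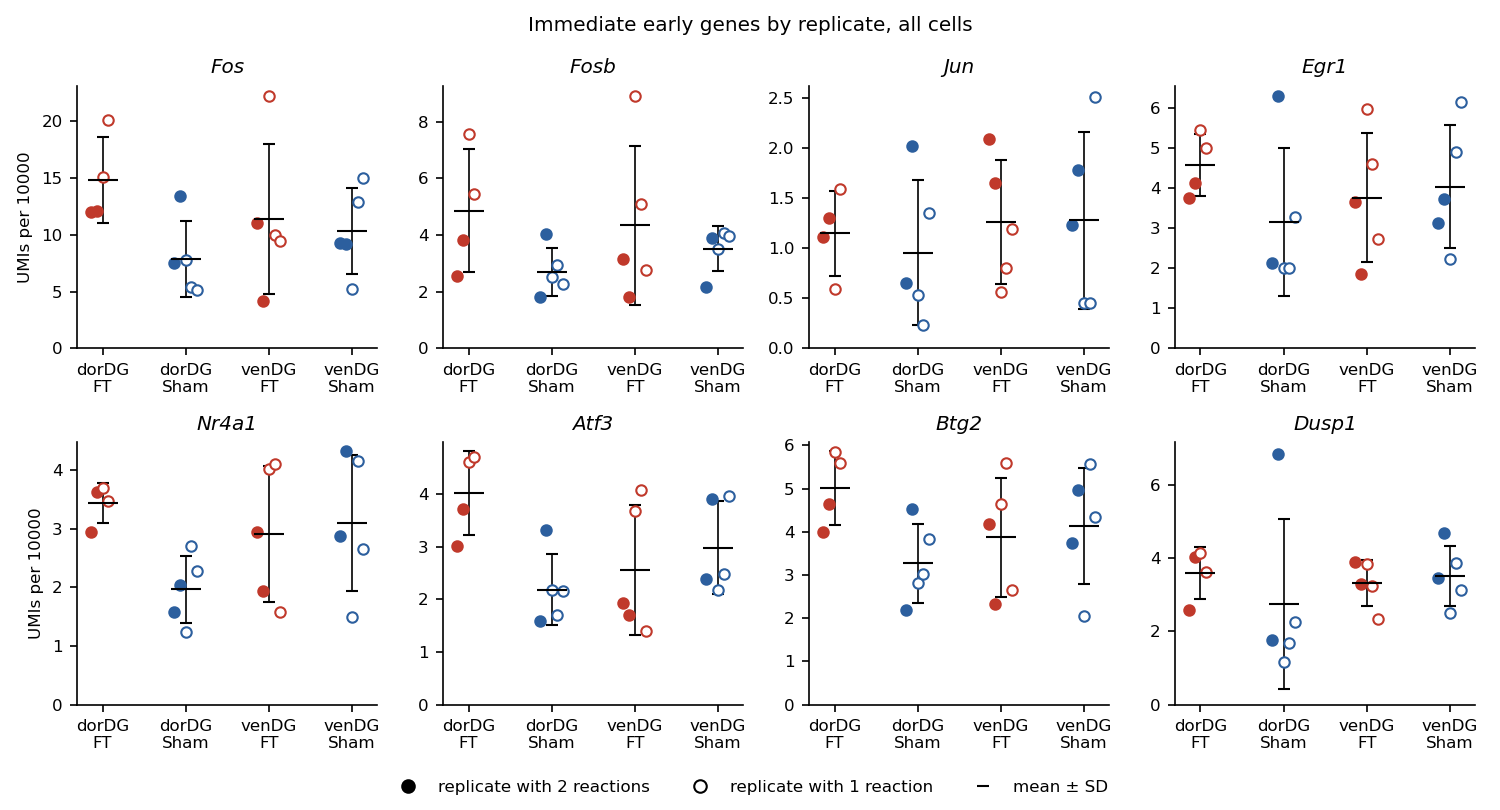
Level of the 8 tested genes in each of the 19 replicates, in UMIs per 10000, by region and treatment, with the group mean and SD. Filled points are replicates with 2 reactions and open points those with 1. In dorDG the FT and Sham points of Nr4a1 are apart, and those of the other 7 genes overlap, as they do for all 8 genes in venDG.

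The dorDG replicates differed in the UMIs they drew from second reactions, in which the members were nearly absent. Second reactions held 121356 of 744617 UMIs in FT replicate 1 and 198890 of 885307 in FT replicate 2. They held 514819 of 1105869 in Sham replicate 1 and 171067 of 578823 in Sham replicate 2. The other dorDG replicates had a single reaction, and the part of this in the result was not tested. The dorDG groups also differed in the make-up of their cells. Ribosome-poor cells, in which the members were lower, made up 20.3, 42.1, 14.5 and 15.2% of cells in FT replicates 1, 2, 4 and 5, and 55.7, 51.4, 72.0, 31.9 and 44.8% in Sham replicates 1 to 5. Blood markers summed to 54.1 to 196 UMIs per 10000 in FT and 0.648 to 215 in Sham (at least 3 of 4 above 0), microglial markers to 9.14 to 20.3 and 6.85 to 16.7 (at least 5 of 6), and oligodendrocyte markers to 110 to 207 and 98.1 to 292 (6 of 6). The part of these markers in the result was not tested. Within ribosome-rich cells, none of the 8 genes was called (0% of 3800 genes called higher, 1 of the 8 at an unadjusted p under 0.05), and their median log2 fold change was 0.10. Fos stood there at 16.9 ± 3.12 in FT and 14 ± 7.25 in Sham (0.22 ± 0.35). Nr4a1 stood at 3.97 ± 0.569 and 3.05 ± 0.304 (0.36 ± 0.15), and was the gene at an unadjusted p under 0.05. Jun (-0.31 ± 0.49), Egr1 (-0.02 ± 0.31) and Dusp1 (-0.15 ± 0.40) had the opposite sign to that in all cells. Within ribosome-poor cells 3 of the genes passed the minimum, and Fos was called higher (3.87 ± 2.87 against 0.840 ± 0.548, log2 fold change 2.35 ± 0.58, adjusted p = 0.18, with 0.343% of genes called higher), while Btg2 (1.19 ± 0.58) and Nr4a1 (0.60 ± 0.63) were not. There Fos stood at 2.12, 0.903, 5.33 and 7.13 in FT replicates 1, 2, 4 and 5, from 29, 83, 19 and 15 cells. Sham values ran from 0.201 to 1.62. Replicates 1 and 2 of both groups include cells of second reactions, and the part of this was not tested.

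The calls in dorDG also rested on single replicates. None of the 8 genes was called when FT replicate 4, FT replicate 5, Sham replicate 1, Sham replicate 3 or Sham replicate 5 was left out, and all 8 were when Sham replicate 2 was, with 23.3% of genes then called higher. With a stricter filter on cells (1000 or more genes, no more than 20000 UMIs, no more than 25% mitochondrial) 3 genes were called, Atf3, Fos and Nr4a1 (4.62% of genes called higher). With library totals 5 were (7.39%), while the share of higher genes among all called genes moved from 43.6% to 27.9%.

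In venDG 0 of the 8 genes were called between FT and Sham by edgeR (0% of 4079 genes, 0 of the 8 at an unadjusted p under 0.05, and 0 of 8 by DESeq2). Fos stood at 11, 4.19, 22.2, 10.0 and 9.45 UMIs per 10000 in FT replicates 1 to 5 and at 9.31, 9.22, 5.22, 12.9 and 15.0 in Sham (log2 fold change 0.13 ± 0.36). FT held both the highest and the lowest Fos value of the region. Nr4a1 stood at 2.94, 1.93, 4.02, 4.10 and 1.58 in FT and at 2.88, 4.32, 1.5, 4.15 and 2.65 in Sham (-0.11 ± 0.31), and its groups overlapped along their whole range. Fosb stood at 3.14, 1.80, 8.90, 5.11 and 2.77 in FT and at 2.15, 3.91, 3.50, 4.06 and 3.98 in Sham (0.30 ± 0.36). The other 5 log2 fold changes lay between -0.23 (Atf3) and -0.02 (Jun).

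The difference of the FT effect between the regions was tested as an interaction over all 19 replicates. None of the 8 genes was called by edgeR (0% of 4161 genes) or by DESeq2, and 2 had an unadjusted p under 0.05. The interaction, venDG minus dorDG, was -1.12 ± 0.45 on the log2 scale for Atf3 (adjusted p = 0.518) and -0.96 ± 0.42 for Nr4a1 (adjusted p = 0.522), and the other 6 ran from -0.78 to -0.30. All 8 estimates were thus below 0 and none held up after adjustment. Without dorDG Sham replicate 2, 3 genes were called below 0, with 3.65% of all genes.

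Between regions in Sham rats, 0 of 8 members were called in venDG against dorDG when replicates were not paired (0% of 4313 genes, 1 of the 8 at an unadjusted p under 0.05, and 0 by DESeq2). The log2 differences ran from 0.37 (Dusp1) to 0.75 (Nr4a1, ± 0.30, adjusted p = 0.545). With the replicate number as a block, which pairs dorDG and venDG replicates of the same number, Nr4a1 was called higher in venDG Sham (0.71 ± 0.17, adjusted p = 0.152, with 0.603% of genes called higher). In that fit 5 of the 8 genes had an unadjusted p under 0.05 by edgeR, as had 617 of 4313 genes. The Sham replicates met the rule for pairing given with the methods below. In the unpaired fit Nr4a1 was also the 1 gene called without dorDG Sham replicate 2 (0.64% of genes called higher). In FT rats 0 of 8 were called (0.275% of 3994 genes called in either direction, 0 of the 8 at an unadjusted p under 0.05, and 0 by DESeq2), with log2 differences from -0.65 (Atf3) to 0.14 (Jun). With the block, 3 of 8 were called lower in venDG FT (4.06% of genes called lower): Atf3 (-0.91 ± 0.23, adjusted p = 0.13), Fos (-0.84 ± 0.20, adjusted p = 0.123) and Egr1 (-0.57 ± 0.18, adjusted p = 0.181). That fit left out venDG FT replicate 3, because dorDG FT has no number 3. The replicate left out held the highest Fos (22.2) and Egr1 (5.99) levels of venDG FT. Unlike Sham, the FT replicates did not meet the rule for pairing (r 0.096 to 0.353). The FT comparison shares its samples with those between FT and Sham, so its values are given side by side with them and not as further support.

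Within reactions of the same order, over both regions, no member was called between FT and Sham by edgeR. In the 8 first reactions the 8 log2 fold changes were all below 0, from -0.58 ± 0.34 (Dusp1) to -0.19 ± 0.26 (Nr4a1), with 0% of 3601 genes called, 0 of the 8 genes at an unadjusted p under 0.05, and 0 by DESeq2. In dorDG, first reactions of FT replicates 1 and 2 held Fos at 14.3 and 15.6, and those of Sham replicates 1 and 2 at 14 and 19.1. In the second reactions 0 of the 10 genes passed the minimum (0% of 4553 genes called). In the 11 single reactions 0 of 8 were called (0% of 4176 genes), with Fos at 0.91 ± 0.36 and Fosb at 0.95 ± 0.30 (adjusted p = 0.274 for each, the 2 genes at an unadjusted p under 0.05), while DESeq2 called 3 higher (Fos, Fosb and Atf3, with 7.52% of genes called higher). The signs in first and in single reactions were opposite for all 8 genes, a difference that was not tested.

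Among the single reactions, dorDG FT replicates 4 and 5 held Fos at 15.1 and 20.1 and dorDG Sham replicates 3, 4 and 5 at 7.81, 5.44 and 5.13, without overlap. Overlap was not counted for all genes among these few replicates. In dorDG alone, a split chosen after the data were seen, 7 of the 8 genes were called higher in FT (Fos 1.74 ± 0.44, adjusted p = 0.0674), with 8.96% of genes called higher, and Jun (0.84 ± 0.59) was not. The ribosome-poor shares of these reactions did not overlap either, at 14.5 and 15.2% in FT and 72.0, 31.9 and 44.8% in Sham, so that the treatment and the class of cells cannot be told apart there. In venDG alone 0 of 8 were called, with Fos at 22.2, 10.0 and 9.45 in FT replicates 3, 4 and 5 and at 5.22, 12.9 and 15.0 in Sham. Within ribosome-rich cells of the single reactions of both regions 0 of 8 were called (Fos 0.36 ± 0.33), and within ribosome-poor cells 2 of 5 were (2.28% of genes called higher), Fos (2.04 ± 0.39, adjusted p = 0.0127) and Btg2 (1.87 ± 0.50, adjusted p = 0.0995).

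**Figure D3:**
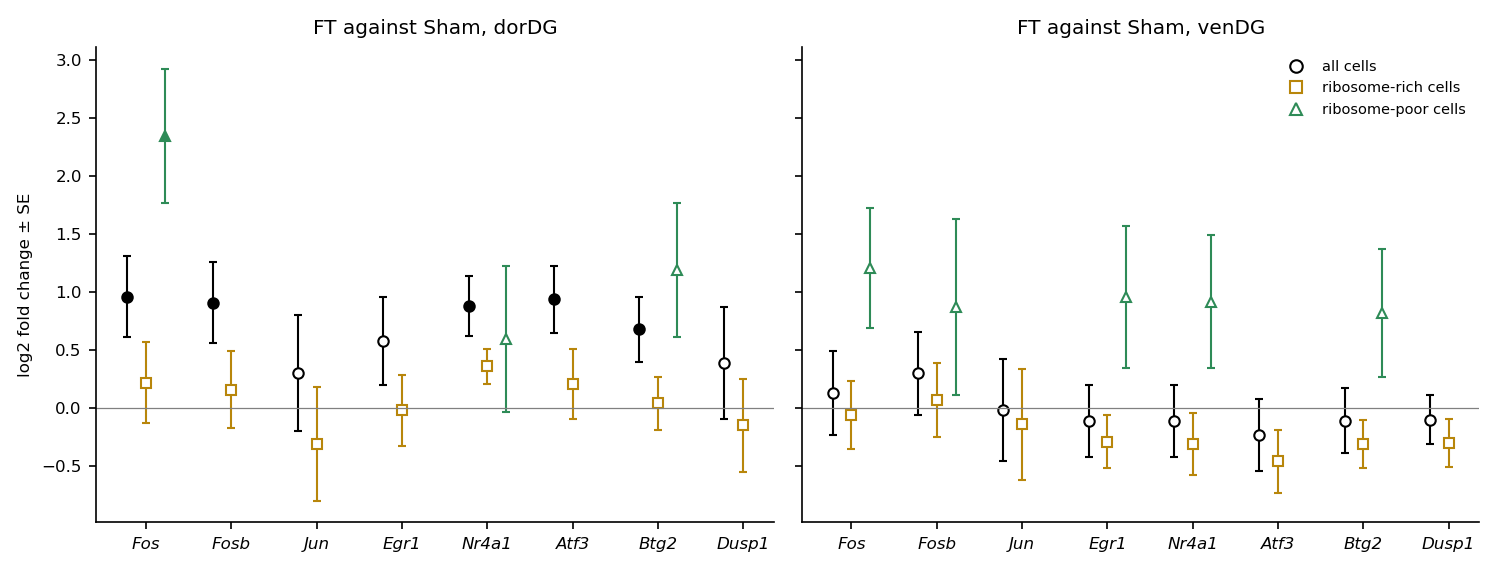
Log2 fold change of FT against Sham with its SE for the tested genes, in dorDG and in venDG, for all cells (circles), ribosome-rich cells (squares) and ribosome-poor cells (triangles), with filled symbols for calls. In dorDG the all-cell values lie between 0.30 and 0.96 and the ribosome-rich values between -0.31 and 0.36. In venDG no symbol is filled.

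Across the 12 cell types that the authors named in dorDG, the 8 tested members had their highest mean in cells named Oligodend2 (Fos, Jun, Egr1, Atf3 and Btg2) or Mossy (Fosb, Dusp1 and Nr4a1). Over all reactions, their lowest means were in ExcitNeuron (Fos, Fosb and Egr1), InhibNeuron (Dusp1 and Nr4a1) or BergGlia cells (Jun, Atf3 and Btg2). In the BergGlia cells (43, with a median of 1025 UMIs per cell) the 0 counts of Jun and Atf3 set only a loose upper limit. For Btg2, ExcitNeuron lay above BergGlia in 1 of 3 shared replicates. These levels are described without a test, because the types were clustered from the same counts. The names were checked against marker genes. Oligodend1 and Oligodend2 cells carried oligodendrocyte markers at 465 and 434 UMIs per 10000, Endothelial cells endothelial markers at 53.3, Microglia1 and Microglia2 cells microglial markers at 77.5 and 83.1, and OPC cells precursor markers at 36.3. AstroSub1 and BergGlia cells carried astrocyte markers at 117 and 98.9. Cells named Mossy held mossy cell markers at 0.127, with Calb2, Csf2rb and Drd2 at 0, and endothelial and mural markers at 30.6 and 17.5, so the name goes against their markers. Cells named Granule held granule cell markers at 2.70 and blood markers at 1050. Those named InhibNeuron held inhibitory markers at 0.582, granule cell markers at 7.36 and excitatory neuron markers at 9.8. Those named ExcitNeuron held excitatory neuron markers at 12.3, the highest of the 12 types, and granule cell markers at 6.84. The names Mossy, Granule, ExcitNeuron and InhibNeuron are used only as labels. No type per cell was used for venDG.

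Fos stood at 49.1 ± 16.9 UMIs per 10000 in Oligodend2 cells (SD over 7 replicates with at least 5 such cells, 34.8 to 78.2), the highest mean of the 12 types. Next came Mossy (15.1 ± 5.22), Endothelial (11.8 ± 5.09), OPC (9.16 ± 3.36), Oligodend1 (8.44 ± 7.33) and Microglia2 (7.36 ± 5.12) cells. Oligodend2 lay above Mossy in 6 of 6 shared replicates, by 36.4 ± 18.7, and Mossy above Endothelial in 7 of 7, by 4.01 ± 2.56, both beyond the spread of the difference. From Endothelial down to Microglia2, neighbours in the order did not differ beyond their spread. Lower still were Microglia1 (3.84 ± 2.38), AstroSub1 (3.84 ± 2.22), Granule (3.14 ± 2.92) and BergGlia cells (1.39 ± 1.76), and InhibNeuron (1.08 ± 0.859) and ExcitNeuron cells (0.617 ± 0.483) were at the foot. Granule lay above BergGlia in 4 of 4 shared replicates. In Oligodend1 cells, which carry the same markers as Oligodend2, the mean Fos level was lower and the values ran from 1.77 to 21.9.

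Fosb had another order, led by Mossy (14 ± 7.39), Oligodend2 (9.49 ± 4.24) and Endothelial (7.04 ± 3.30) cells, in which neighbours in the order did not differ beyond their spread. Endothelial lay above OPC (3.05 ± 1.76) by 3.45 ± 2.85, and ExcitNeuron cells were lowest at 0.0174 (1 UMI). Oligodend1 cells held Fosb at 0.639 ± 0.638. Jun was highest in Oligodend2 cells (3.50 ± 1.34), above Microglia2 (1.83 ± 2.26) in 6 of 7 shared replicates, and was not counted in BergGlia cells. Junb reached at most 0.169 in any type and Ier2 at most 0.0668, with 7 UMIs or fewer of each in a type, so no order is given for them.

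Egr1 was highest in Oligodend2 cells (13.4 ± 5.82), above Mossy (6.10 ± 2.53) in 6 of 6 shared replicates by 8.22 ± 7.34. Atf3 was highest in Oligodend2 (10.5 ± 5.94) and Endothelial (6.95 ± 2.81) cells, which did not differ beyond their spread. Btg2 was likewise highest in Oligodend2 (11.1 ± 6.04) and Endothelial cells (10.9 ± 2.65), and Endothelial lay above Mossy (6.66 ± 1.57) in 7 of 7 replicates. For Dusp1, the MAP kinase phosphatase, Mossy (9.55 ± 5.94), Endothelial (6.14 ± 2.90) and Microglia1 (5.95 ± 5.45) cells led, and Oligodend2 (3.69 ± 0.841) came after Microglia2 (4.31 ± 2.04). Nr4a1 was highest in Mossy (8.17 ± 2.99), Endothelial (5.6 ± 1.13) and Oligodend2 (5.06 ± 3.84) cells. Of the 10 genes, then, 5 had their highest mean in Oligodend2 cells, and Fos was highest there in 7 replicates.

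**Figure D4:**
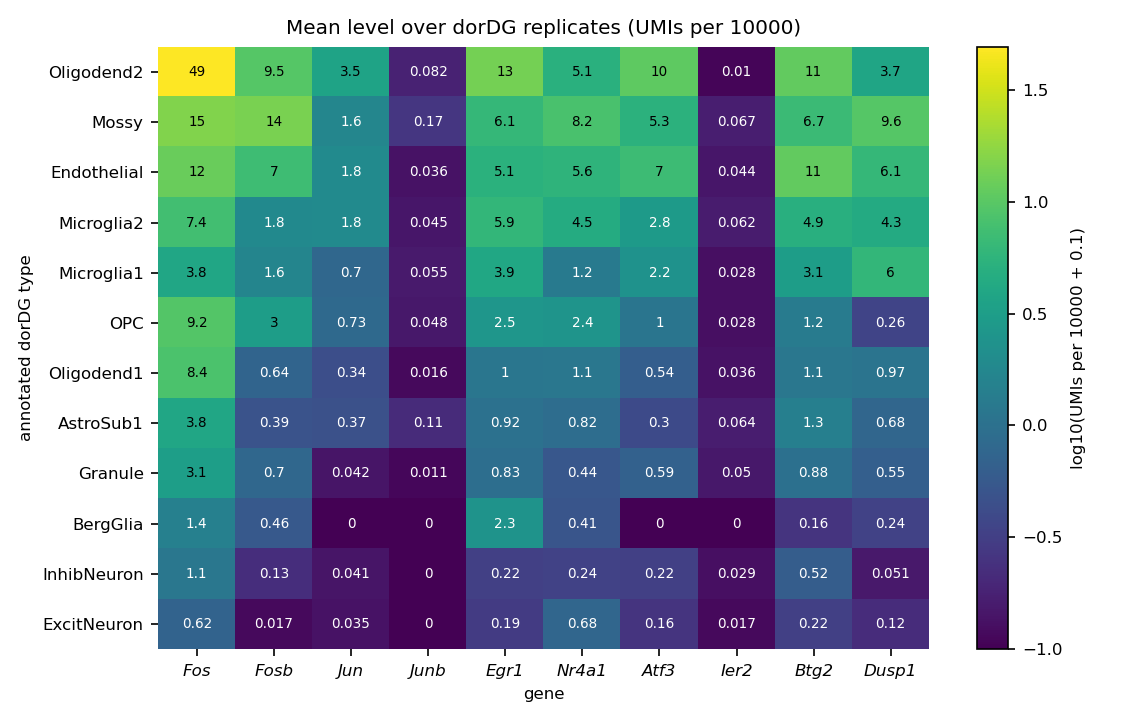
Mean level of the 10 genes in the 12 dorDG types over the replicates that had 5 or more such cells, as a colour scale of log10(UMIs per 10000 + 0.1). The highest mean of each tested gene stands in Oligodend2 or Mossy, and Junb and Ier2 are dark throughout.

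The types also differed in their class of cells and in the reactions they came from. Ribosome-poor cells made up 79.8% of Granule, 80.0% of ExcitNeuron and 79.6% of InhibNeuron cells, 62.7% of AstroSub1 and 50.9% of Oligodend1 cells, but 12.6% of Oligodend2, 11.1% of Mossy and 7.78% of Endothelial cells. Only 1 of the 95 Oligodend2 cells came from a second reaction, against 55 of the 171 Oligodend1 cells. Within ribosome-rich cells Fos was again highest in Oligodend2 (53.6 ± 16.6, n = 6) and Mossy cells (17.0 ± 4.04, n = 6), and Oligodend1 cells stood at 11.3 ± 6.88. Within ribosome-poor cells 0 of the 10 genes were highest in Oligodend2 cells, of which 1 replicate had 5 or more. In first reactions alone, with the cells of a type pooled, Fos stood at 47.6 in Oligodend2, 15.9 in Endothelial, 14.1 in Mossy, 10.9 in Microglia2, 10.3 in OPC, 6.56 in Oligodend1, 5.39 in Granule, 5.18 in Microglia1, 4.33 in AstroSub1, 3.10 in InhibNeuron, 2.78 in BergGlia and 2.70 in ExcitNeuron cells. Mossy then stood below Endothelial, the reverse of their order over replicates. Of the 55 ExcitNeuron cells 29 came from second reactions. In first reactions Egr1 was lowest in AstroSub1 cells (0.585) and stood at 2.70 in ExcitNeuron cells, and Nr4a1 was lowest in BergGlia cells (0, from 22 cells with 25187 UMIs). The other tested genes kept the lowest type that they had over replicates.

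Within dorDG types, FT and Sham could be compared in 9 types with 65 pairs of type and gene, and 1 pair was called: Fos in Oligodend1 cells (3.49% of genes in that type were called higher). Fos stood there at 12.2, 3.44, 18.4 and 21.9 UMIs per 10000 in FT replicates 1, 2, 4 and 5, and at 3.12, 4.59, 1.77, 3.86 and 6.73 in Sham replicates 1 to 5. FT replicate 2 lay within the Sham values, and the other 3 lay above all of them. The log2 fold change was 1.82 ± 0.38 (edgeR adjusted p = 0.0601), and DESeq2 also called this pair alone. In ribosome-rich Oligodend1 cells it was 1.06 ± 0.37 and was not called. Without FT replicate 4 or without FT replicate 5 no pair was called, and without FT replicate 2 there were 5 calls. The share of all genes called without FT replicate 2 is not given here, so that count is not read as a result about the members. The other 6 tested genes of Oligodend1 cells were all above 0, from 0.60 ± 0.49 (Atf3) to 1.16 ± 0.53 (Egr1), and none was called.

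In Oligodend2 cells, where Fos was highest, all 8 log2 fold changes were above 0, from 0.06 (Dusp1) to 1.27 (Btg2), and none was called (0.029% of genes, 5 of the 8 at an unadjusted p under 0.05, and 0 of the 8 by DESeq2). Fos stood at 42.4, 78.2, 44.5 and 67.8 in the 4 FT replicates and at 38.1, 38.2 and 34.8 in the 3 Sham replicates with at least 5 such cells. These groups did not overlap, but the log2 fold change of 0.65 ± 0.26 had an adjusted p of 0.999. Overlap was not counted for all genes tested in Oligodend2 cells. In Microglia2 cells (0.0581% of genes called) Atf3 stood at 1.73 ± 0.64 and Jun at -1.38 ± 0.64 without a call, and in AstroSub1 cells (0.0232%) the 5 tested genes ran from -1.66 (Nr4a1) to 0.77 (Fos). In Endothelial, Granule, Microglia1, Mossy and OPC cells 0% of genes were called, and the members ran from -1.60 (Dusp1 in Granule cells) to 0.90 (Dusp1 in Endothelial cells). BergGlia, ExcitNeuron and InhibNeuron cells had too few replicates with 5 cells for a test.

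**Figure D5:**
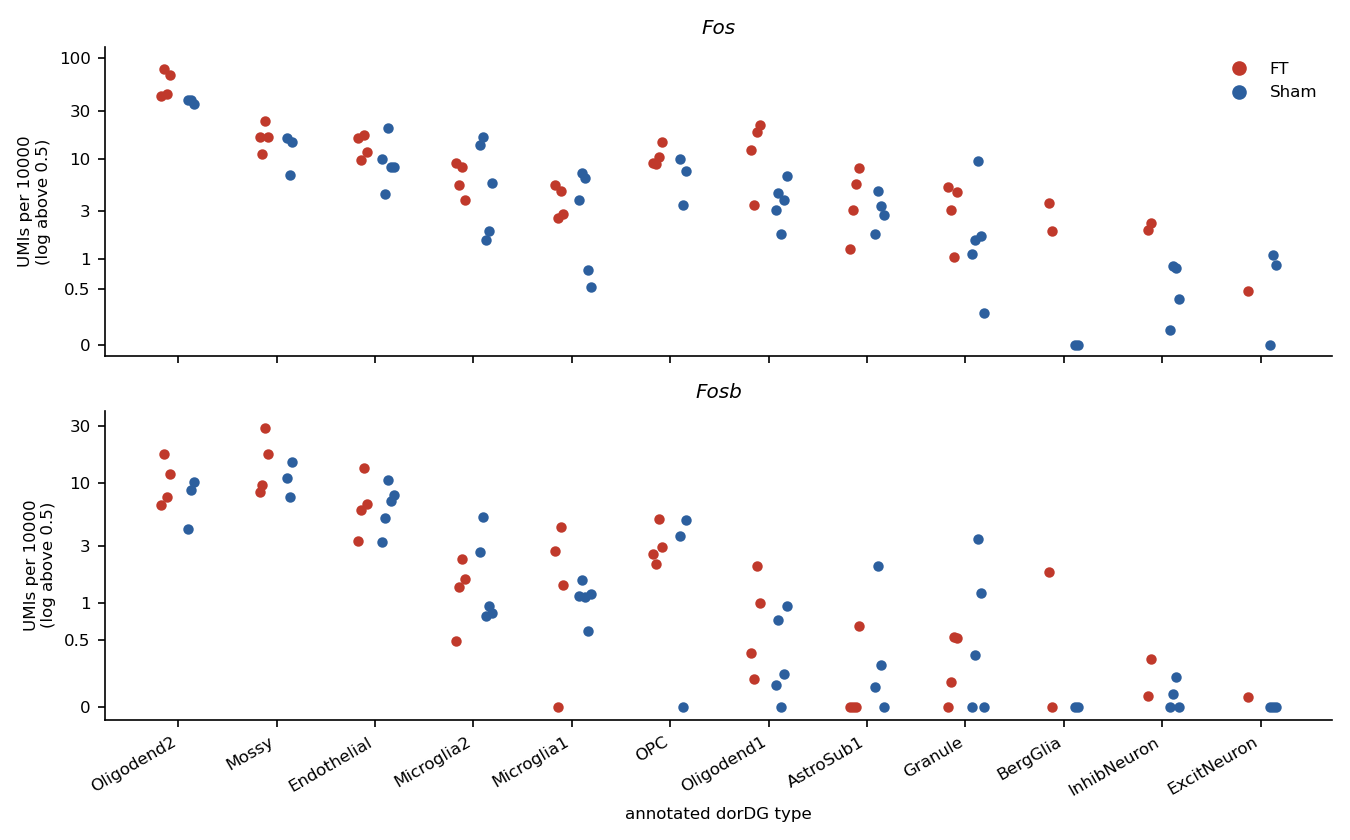
Fos and Fosb in each dorDG replicate with at least 5 cells of a type, in UMIs per 10000 on an axis that is linear near 0 and logarithmic above, for 12 types, with FT in red and Sham in blue. Oligodend2 points for Fos lie between 34.8 and 78.2, and in Oligodend1 3 FT points lie above all Sham points.

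Other genes of the early response were taken from a list of 68 companions (further AP-1, EGR, KLF and NR4A factors, feedback and RNA decay genes, matricellular and neuronal activity genes), of which 60 were in the tables. In the second reactions 20 of 23 tested companions were lower and 1 was higher than in the first (median log2 difference -3.45). The lowest were Zfp36 (-5.78 ± 0.47), which encodes an RNA decay factor, Gadd45b (-5.58 ± 0.28), Ier3 (-5.24 ± 0.37) and Csrnp1 (-5.05 ± 0.28), and Klf9, a Krüppel-like factor, was higher (0.60 ± 0.21). Of 11 heat shock genes 10 were lower (median -3.33), beside 39.9% of all genes. Of 16 genes upstream of the immediate early genes (kinases and the factors that bind their promoters) 9 were higher and 2 lower, where 44.2% of all genes were called higher. In Endothelial cells 18 of 22 tested companions were called lower in the second reaction (16.2% of all genes).

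Between FT and Sham in dorDG, 6 of 25 companions were higher and 0 lower (median 0.40, against -0.04 for all genes), among them Btg1 (1.12 ± 0.27), Klf4 (1.05 ± 0.27), Zfp36 (1.01 ± 0.34) and Dusp6 (0.89 ± 0.22). Of heat shock genes 8 of 11 were higher, beside 12.4% of all genes called higher, and of upstream genes 3 of 15 were lower, near the 16.1% of all genes called lower. In ribosome-rich cells of dorDG none of 28 companions, 12 heat shock genes and 12 upstream genes was called. In venDG 0 of 27 companions, 0 of 12 heat shock and 0 of 13 upstream genes were called, and in the single reactions of both regions 0 of 26, 0 of 12 and 0 of 14. In Oligodend1 cells 1 of 12 companions was higher in FT (Gadd45b, 1.05 ± 0.38, adjusted p = 0.188), with 4 of 10 heat shock genes higher (3.49% of all genes) and 1 of 9 upstream genes lower (2.65%).

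Genes whose pattern was most like that of the members were ranked by Pearson's r with the summed level of the 10 members, each as log2(UMIs per 10000 + 0.1). Over the 12 dorDG types, among 4218 genes, the nearest non-members were Ddit3 (r = 0.967) and Atf4 (0.960), which encode factors of the stress response to unfolded proteins, the chaperone genes Hsp90aa1 (0.952) and Dnajb1 (0.948), and AABR06094273.1 (0.939). The tested members' own r with this sum, of which they are part, ran from 0.880 (Dusp1) to 0.965 (Jun). Over the 27 reactions, among 4301 genes, they were Mal (0.983), a myelin gene, LOC100360645 (0.981), Eif1 (0.980), Pcna (0.979) and H3f3b.1 (0.978), and the members ran from 0.913 (Jun) to 0.990 (Btg2). These are descriptions over points that share libraries, depth and class of cells, since all reactions with low members were the second reactions.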

How the data were processed

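Droplet RNA libraries (108, 4 for each of 27 reactions) of dorDG and venDG were made with the version 2 kit. Whole-number UMI counts for each gene in each cell were deposited, which the authors made with Cell Ranger 2.1.0 and filtered and annotated with Seurat 3. The submitters' processing notes name the build rn5, so GRCr8 was used here only for the promoter table. The authors' deposited log-normalized values were not used, and their per-cell table gave the dorDG types. In venDG, 170 columns whose names end in a further, unexplained suffix (167 repeat a barcode of the same reaction) were left out. A further 9 barcodes occur in 2 or more reactions. No doublet caller was run and no more cells were removed.

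Groups came from the labels. UMI counts were summed per replicate (or reaction, or type where 3 replicates of each group had 5 cells or, for reactions, 3 cells) and tested with edgeR 4.0.16 (TMM, quasi-likelihood F-test) over genes whose mean level reached 0.5 UMIs per 10000. SE is the log2 fold change divided by the root of F. Calls used an adjusted p of 0.2 and a log2 fold change of 0.32, after the study's methods. The 2% boundary of ribosome-rich cells was set after the distribution was seen, and 177 cells lay between 1.5 and 2.5%. The labels do not give animals per replicate, and the 36 pairs of replicates within groups differed by more than counting noise (chi-square over its degrees of freedom, 5.51 to 47.7). Alternatives used DESeq2 1.42.0, limma 3.58.1 on log2(UMIs per 10000 + 0.01), other filters and cell classes, and replicates left out. Intervals of ratios are exact, at 95%, and floors are 3 counts, and both cover counting error only. Scripts were tested on simulated counts.

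The members, lists and tests were chosen with earlier results of these data known. Named genes were all 10 members, the 4 highest and 4 lowest called companions of a comparison, and the 5 genes most like the members (pseudocount 0.1). Same-numbered replicates were checked for shared deviations, as Pearson's r over genes. They deviated together in all 5 pairs of dorDG and venDG Sham (r 0.198 to 0.561), which met the rule for pairing, but not in all pairs of dorDG and venDG FT (0.096 to 0.353), of dorDG FT and Sham (-0.224 to 0.362) or of venDG FT and Sham (-0.164 to 0.265). The reagent captures 3′ ends and the strand used in counting is not given in the sources used here, so antisense or overlapping transcripts cannot be told apart from the named genes.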

Additional observations from a re-analysis of the deposited data

Results flagged for a closer look

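In 9 of 59 groups of 4 to 8 samples 1 sample stood apart from the others by Dixon's test. The groups share samples and several rest on few UMIs, so this count is not set against a chance rate. In dorDG Sham, replicate 2 held the highest Dusp1 level (6.84 UMIs per 10000, the next being 2.24), Junb level (0.242, from 14 UMIs, the next being 0.0185) and Ier2 level (0.104, from 6 UMIs, the next being 0.0185). Its first reaction also held the highest Egr1 level of the 8 first reactions (8.85, the next being 5.33). In venDG FT, replicate 1 held the highest Junb level (0.21, from 22 UMIs, the next being 0.0507) and Ier2 level (0.0762, from 8 UMIs, the next being 0.0152). Among first reactions that of venDG FT replicate 2 was lowest for Fos (5.68, the next being 12.8). Among second reactions that of venDG FT replicate 1 was highest for Fos (0.198, from 5 UMIs, the next being 0.0503) and that of venDG FT replicate 2 was the only one with Junb (0.0274, from 1 UMI).

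The 170 venDG columns with an unexplained second suffix, 294323 UMIs in all, held 3 members above the limit that a count of 0 allows (0.102 UMIs per 10000): Btg2 at 0.204 (6 UMIs), Dusp1 at 0.204 (6 UMIs) and Nr4a1 at 0.272 (8 UMIs).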

How the results depend on the processing

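All 8 members were called lower in the second reaction under each alternative that could test them: DESeq2, library totals, adjusted p of 0.05, no replicate block (8 genes, median -6.04), cells of 1500 to 3000 UMIs, each region, ribosome-rich cells, and without each replicate. In ribosome-poor cells 6 of 6 testable members were. No filter gave 10 of 10. Requiring 1 cell per type and reaction gave 38 calls of 41 pairs in place of 14 of 15. In that setting 0% (BergGlia) to 41.3% (Oligodend1) of the genes of a type were called in either direction.

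Calls between FT and Sham in dorDG moved from 5 to 0 at an adjusted p of 0.05, 2 without a filter, 0 in ribosome-rich and 1 in ribosome-poor cells, 3 with the study's filter, 0 with the replicate block, and 0 to 8 without each replicate. limma called 6 (497 of 4274 genes called higher) and DESeq2 5 (874 of 4274), with no adjusted p for Dusp1. Without a filter 84 of 18918 genes were called higher. The sources do not say for these libraries that FT and Sham of a number were handled together, and the deviations did not pair them (1 of 4 dorDG and 3 of 5 venDG replicates correlated best with their own number). The block kept only replicate numbers found in every group of a fit, so number 3 dropped out of each fit with dorDG FT. It gave 0 calls in venDG, 3 for venDG against dorDG in FT (Atf3 -0.91, Fos -0.84, Egr1 -0.57), 1 for the same in Sham, and 2 of 53 pairs within types (adding Fos in Granule cells, 1.57), and changed no other count of members. With it 5.62% of genes in Oligodend1 and 0.995% in Granule cells were called in either direction. Within types there were 0 calls in ribosome-rich cells and 0 to 5 without each replicate (0 without FT 4 or FT 5, 2 without Sham 4 or Sham 5, 5 without FT 2). Single reactions gave 3 calls with DESeq2, 2 in ribosome-poor cells, 7 in dorDG alone, and 0 to 5 without each replicate (5 without venDG Sham 4, 3 without venDG FT 5, 2 without venDG Sham 5). For types and single reactions, shares of all genes called with a replicate left out are not given here. Those counts are therefore not read as results about the members. The interaction gave 0 to 3 and venDG against dorDG in Sham 0 to 1. In ribosome-poor cells 0 members were highest in Oligodend2, against 5. The cause of these changes was not tested.

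Signs reversed, among values that were not called, as follows (log2). In dorDG FT against Sham with ribosome-rich cells: Jun -0.31, Egr1 -0.02, Dusp1 -0.15. In venDG: Fos -0.06 (ribosome-rich) and -0.03 (block); Jun 0.09 (no filter), 0.14 (limma), 0.02 (study's filter) and 0.13 (block); without a filter Egr1 0.04, Btg2 0.02, Dusp1 0.03 and Nr4a1 0.02; in ribosome-poor cells Egr1 0.96, Btg2 0.82 and Nr4a1 0.92. Interaction: Jun 0.18 (ribosome-rich), Nr4a1 0.33 (ribosome-poor). venDG against dorDG in Sham: Fos -0.03 (ribosome-rich). In FT: Dusp1 0.03 (ribosome-rich), and in ribosome-poor cells Egr1 1.83, Btg2 0.18, Dusp1 0.53 and Nr4a1 0.64. Single reactions: Jun -0.36 and Btg2 -0.03 (ribosome-rich), and in venDG alone Jun -0.39, Egr1 -0.001 and Dusp1 -0.03. Without each replicate, venDG FT against Sham gave Fos -0.28 to 0.33, Fosb -0.15 to 0.49, Jun -0.27 to 0.31, Egr1 -0.34 to 0.09, Btg2 -0.29 to 0.02, Dusp1 -0.19 to 0.03 and Nr4a1 -0.27 to 0.05. venDG against dorDG in FT gave Fosb -0.61 to 0.14, Jun -0.08 to 0.34 and Dusp1 -0.24 to 0.02; first reactions Jun -0.40 to 0.16 and Nr4a1 -0.36 to 0.04; single reactions Jun -0.32 to 0.84; the interaction Jun -0.84 to 0.03. Over all members and settings 62 values reversed, 1175 kept sign and side of the threshold, 51 lost and 38 gained a call.

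Depth limits Junb and Ier2, which had 73 and 50 UMIs in all, and every member in second reactions.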
